A study of Mus musculus with 9 samples.

Results

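The CCAAT/enhancer-binding proteins (C/EBP) are a family of leucine zipper transcription factors, and 5 genes of the family, Cebpa, Cebpb, Cebpd, Cebpe and Cebpg, were followed here in mouse myeloid cells. All probe sets annotated to one of these genes alone were taken, which gave 8 of the 22690 probe sets of the array. They stand for 4 of the 5 genes: Cebpa has 1 probe set, Cebpb 2, Cebpd 2 and Cebpg 3. Cebpe, which encodes the factor of late granulocyte maturation, had no probe set under its name in the annotation and was not analysed here. All 8 had a signal above 111 on at least 3 arrays, the minimum for testing, which 14578 probe sets met in all.

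Mouse cells of 3 kinds were hybridized, with 3 arrays each. L-GMP-derived cells were propagated in vitro from L-GMP. L-GMP are cells resembling granulocyte-macrophage progenitors, taken from leukemic mouse bone marrow, where MLL-AF9 is the driving fusion. GMP are normal granulocyte-macrophage progenitors from bone marrow. The titles of the L-GMP-derived arrays are codes and their source reads L-GMP, so these arrays were placed in that group as the only one of the design text left. The sources used here do not give mouse strain, age, culture conditions or how the fusion was introduced. Whether a group's 3 arrays stand for separate animals or cultures is not said, and p-values therefore reflect only array-to-array spread, possibly technical.

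C/EBP proteins bind DNA as pairs, joined through their zippers, and recognise closely similar sequences. C/EBP alpha, the product of Cebpa, is required for the step from common myeloid progenitor to GMP and restrains the cell cycle. C/EBP beta takes over granulocyte production in emergencies and also acts in macrophages. C/EBP delta is induced in inflammation and during granulocyte differentiation. C/EBP gamma lacks an activation domain of its own and acts as a partner of other leucine zipper proteins, ATF4 among them. In acute myeloid leukemia, loss or silencing of C/EBP alpha is a recurrent event.

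The sequences just upstream of 3 family genes are shown because they carry the short elements through which C/EBP and CREB-type factors are known to act on Cebpa and Cebpb, and because Cebpa and Cebpg lie on the same chromosome. They are the 250 bases before the annotated gene start, 5′ to 3′ on the gene's own strand, from RefSeq (GRCm38.p6). The windows are chr7:35119043-35119292 (plus strand) for Cebpa, chr2:167688665-167688914 (plus strand) for Cebpb and chr7:35056567-35056816 (minus strand) for Cebpg. Capitals mark the TTGCG core of the C/EBP site and the TATA box TATAAA in Cebpa, the TGACG core of the CRE or its reverse complement in Cebpb, and the reverse complement of CCAAT in Cebpg.
Cebpa: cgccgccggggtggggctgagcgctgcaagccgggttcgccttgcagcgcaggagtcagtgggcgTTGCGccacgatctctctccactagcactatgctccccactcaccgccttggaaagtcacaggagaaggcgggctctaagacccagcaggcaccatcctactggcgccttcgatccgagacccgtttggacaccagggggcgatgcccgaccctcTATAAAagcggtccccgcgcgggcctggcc
Cebpb: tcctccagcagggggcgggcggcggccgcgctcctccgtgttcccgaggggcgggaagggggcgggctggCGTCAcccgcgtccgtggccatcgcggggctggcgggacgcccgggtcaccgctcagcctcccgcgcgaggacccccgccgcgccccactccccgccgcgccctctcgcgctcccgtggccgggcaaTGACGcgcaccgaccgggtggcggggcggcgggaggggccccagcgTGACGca
Cebpg: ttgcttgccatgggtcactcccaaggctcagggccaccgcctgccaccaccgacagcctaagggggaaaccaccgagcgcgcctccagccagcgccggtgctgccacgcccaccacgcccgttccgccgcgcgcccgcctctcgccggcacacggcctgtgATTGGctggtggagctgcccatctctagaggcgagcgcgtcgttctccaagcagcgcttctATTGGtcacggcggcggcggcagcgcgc

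Each motif was searched on both strands in these windows and in the same window of all 32851 RefSeq promoters in the table. TTGCG was found 1 time in Cebpa, starting 185 bases before the gene, and not in Cebpb or Cebpg, and 14.5% of all promoters held it. TGACG was found at 3 places in Cebpb and not in the other two windows (17.8% of all promoters), and CCAAT at 2 places in Cebpg and not in the other two (33.8%). TATAAA was found only in the Cebpa window of the 3 searched (12.4%). The full C/EBP palindrome TTGCGCAA (0.164% of promoters) and the amino acid response element TGATGNAA (3.45%) were in none of the 3 windows. These matches are descriptions of letters and not of binding. The Cebpg and Cebpa windows lie 62.2 kb apart on opposite strands, pointing away from each other.

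Arrays of the same group correlated at 0.958 to 0.991 over the tested probe sets, and arrays from different groups at 0.898 to 0.928. The first L-GMP-derived array was unlike the other two: a gap of 2-fold or more separated it from replicates 2 and 3 at 599 and 492 probe sets, and those from each other at 35. L-GMP replicate 1 had the highest Camp, Ngp and Lcn2 signals of its group, with Camp at 8518 against 3432 and 5386 on the other two L-GMP arrays. Of the markers of the GMP gate, Kit averaged 93.9 ± 23.5 in L-GMP-derived cells, 657 ± 99.4 for L-GMP and 816 ± 41.7 for GMP (SD, n = 3 each), and Cd34 was below the signal floor of 62.4 on all 3 L-GMP-derived arrays. Mpo was 3581, 425 and 319 in L-GMP-derived cells, 6630.5, 4647 and 6806 in L-GMP and 9224, 9398 and 9476 in GMP, while Elane lay between 5460 and 7852 on all 9 arrays. The Fc receptor genes of the gate did not follow Kit and Cd34: Fcgr3 averaged 517 ± 39.9 in L-GMP-derived cells, 825 ± 109 for L-GMP and 534 ± 41.5 for GMP, and Fcgr2b 1619 ± 232, 2438 ± 388 and 1398 ± 107 in the same order. Of 6 tested gate genes, 3 were lower and none higher in L-GMP-derived cells than in GMP. The summed signal of 6 mature neutrophil markers was 523 to 2818 in L-GMP-derived cells, 6026 to 16026 in L-GMP and 2152 to 7890 in GMP. Of these 6, Mmp8, Mmp9 and Cxcr2 did not pass the filter. In the same order of groups, the summed signals were 431 to 644, 4857 to 7531 and 4033 to 4382 for 9 eosinophil, mast cell and basophil markers. Of the 6 tested among these 9, 1 was higher in L-GMP than in GMP, Prg2, and 2 were lower, Hdc and Mcpt8. The summed signals were 3543 to 4653, 10074 to 11038 and 10579 to 11254 for 8 monocyte and macrophage markers. Single genes of this sum differed: Csf1r averaged 535, 4673 and 5767, but Adgre1 984, 3072 and 375 and Cd68 214, 372 and 98.0. Of the 6 tested, 2 were higher and 1 lower in L-GMP than in GMP. In L-GMP-derived cells 2 were higher and 2 lower than in GMP. The 7 B cell markers summed to 2641 to 3247, 2995 to 3140 and 2921 to 3121, and the 6 erythroid and megakaryocyte markers to 1113 to 1184, 1249 to 1483 and 1435 to 1628. The 9 T and NK cell markers summed to 1468 to 1518, 2814 to 3253 and 3607 to 3936. Of these, Nkg7 averaged 269, 1651 and 2428, and it was the only 1 of 6 tested called in L-GMP-derived cells against GMP. In such bulk samples, fewer cells of a type and less RNA per cell cannot be told apart, and the part of these markers in the results below was not tested.

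Cebpa was the family member with the largest differences in both comparisons that involve L-GMP. Its probe set 1418982_at had signals of 613, 923 and 938 in L-GMP-derived cells, of 419, 280 and 317 in L-GMP, and of 955, 1206 and 1347 in GMP. Every L-GMP array lay below every L-GMP-derived array, and every L-GMP-derived array below every GMP array. The group means were 825 ± 183 in L-GMP-derived cells, 339 ± 71.7 for L-GMP and 1169 ± 199 for GMP (SD, n = 3 each). Against GMP, Cebpa fell 3.47-fold in L-GMP, with a log2 fold change of -1.79 ± 0.21 (SE; 95% interval -2.26 to -1.33, adjusted p = 1.60e-04, limma). Of the 8959 genes tested, 97.9% differed by less between L-GMP and GMP, where the median size of a log2 change was 0.23. Against L-GMP, Cebpa rose 2.43-fold in L-GMP-derived cells (log2 fold change 1.28 ± 0.21 SE, 95% interval 0.81 to 1.74, adjusted p = 0.00119). The call held without L-GMP-derived replicate 1, at 2.79-fold (adjusted p = 1.91e-04). L-GMP-derived cells and GMP did not differ beyond the threshold (log2 fold change -0.52 ± 0.21 SE, 95% interval -0.98 to -0.05, adjusted p = 0.101), although their signals did not overlap. L-GMP-derived replicate 1, the array that stood apart, was the lowest of its group, and without it the log2 fold change against GMP was -0.32 (adjusted p = 0.231). The order of the levels was therefore GMP and L-GMP-derived cells, which did not separate by the test, above L-GMP.

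**Figure D1:**
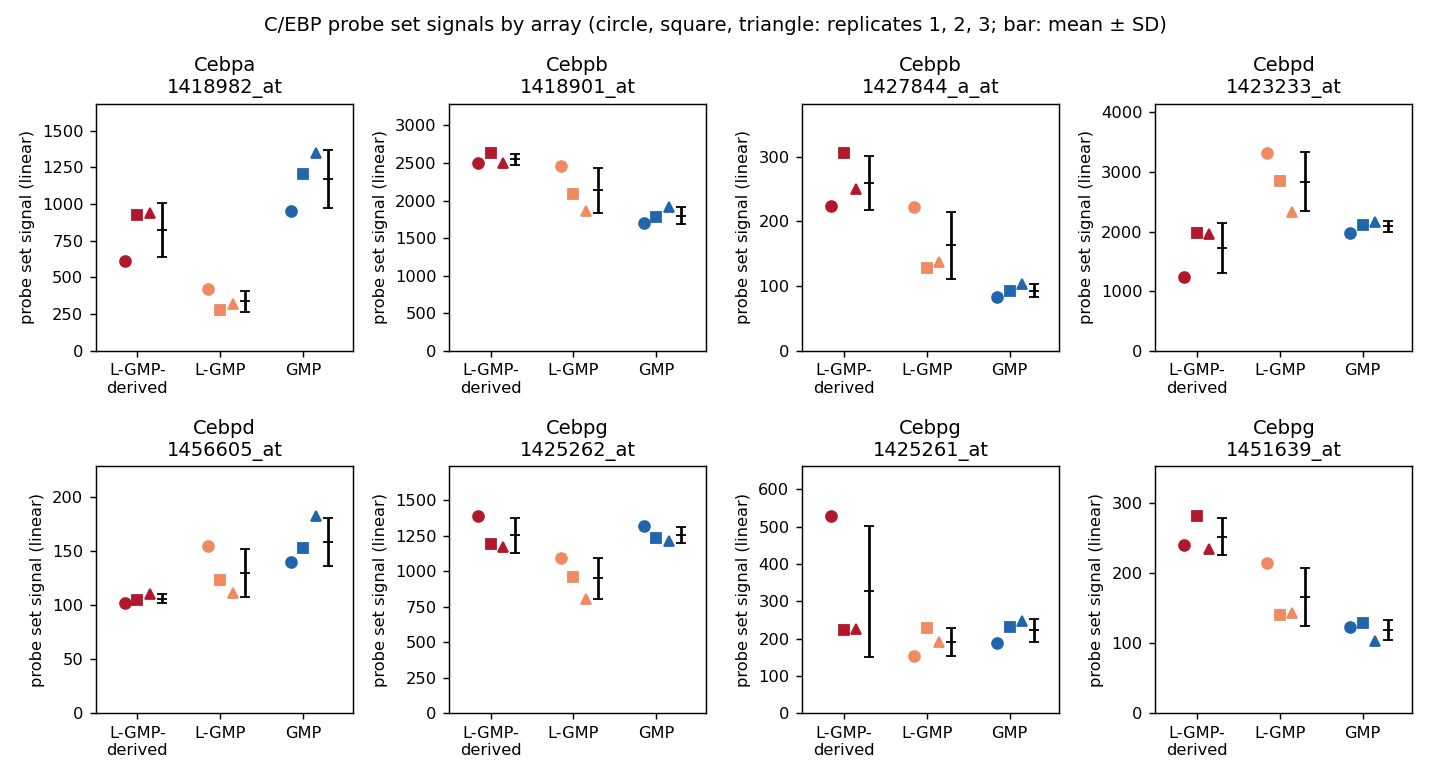
Signals of the 8 C/EBP probe sets on the linear scale of the deposited values, with 1 panel a probe set, the 3 groups along the x axis, 1 point an array and bars for the mean ± SD of 3 arrays. Cebpa is lowest on the 3 L-GMP arrays (280 to 419), and the Cebpg probe set 1425261_at has 1 L-GMP-derived array at 529.

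By group mean, Cebpb was lowest in GMP, where Cebpa was highest. The brighter probe set, 1418901_at, read 2507, 2633 and 2507 in L-GMP-derived cells, 2456, 2088 and 1859 in L-GMP, and 1703, 1775 and 1918 in GMP. All 3 L-GMP-derived arrays were above all others, while L-GMP and GMP overlapped through L-GMP replicate 3. Against GMP, Cebpb rose 1.42-fold in L-GMP-derived cells (2549 ± 72.6 against 1798 ± 110, SD; log2 fold change 0.50 ± 0.10 SE, 95% interval 0.28 to 0.73, adjusted p = 0.00521). L-GMP averaged 2134 ± 301, and neither its difference from GMP (log2 fold change 0.24, 95% interval 0.01 to 0.47, adjusted p = 0.115) nor that of L-GMP-derived cells from L-GMP (0.27, 95% interval 0.04 to 0.49, adjusted p = 0.0767) passed the threshold. The first passed without L-GMP replicate 3 (0.33, adjusted p = 0.0376) and the second without L-GMP replicate 1 (0.37, adjusted p = 0.0160).

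The second Cebpb probe set, 1427844_a_at, was dimmer and separated the groups further. It read 224, 306 and 250 in L-GMP-derived cells, 223, 128 and 137 in L-GMP, and 83.2, 91.7 and 103 in GMP, with no overlap between any of the groups. The L-GMP-derived and L-GMP ranges met closely, at 224 and 223. It was called in all 3 comparisons: 2.79-fold higher in L-GMP-derived cells than in GMP (log2 fold change 1.48 ± 0.21 SE, adjusted p = 6.52e-04), 1.71-fold higher in L-GMP than in GMP (0.77 ± 0.21 SE, adjusted p = 0.0214) and 1.63-fold higher in L-GMP-derived cells than in L-GMP (0.71 ± 0.21 SE, adjusted p = 0.0278). The first of these held in all 18 alternative settings. The call of L-GMP against GMP was lost in 6 of them, among them those without L-GMP replicate 1, GMP replicate 1 or GMP replicate 2 (adjusted p up to 0.0723). The call of L-GMP-derived cells against L-GMP was lost in 7, among them those without L-GMP replicate 2 or 3 or L-GMP-derived replicate 2 or 3 (adjusted p up to 0.107). Over the 9 arrays, both Cebpb probe sets followed each other at r = 0.97 (log2 signals, Pearson). They gave the same order of groups, but the log2 changes of the dimmer one were larger in each comparison.

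Cebpd was highest in L-GMP by its bright probe set, 1423233_at. Signals were 1231, 1975 and 1967 in L-GMP-derived cells, 3317, 2857 and 2336 in L-GMP, and 1973, 2115 and 2167 in GMP. The L-GMP arrays lay above all others, and L-GMP-derived cells overlapped GMP. Cebpd fell 1.67-fold in L-GMP-derived cells against L-GMP (1724 ± 427 against 2837 ± 491, SD; log2 fold change -0.74 ± 0.18 SE, 95% interval -1.14 to -0.34, adjusted p = 0.0109). Without L-GMP-derived replicate 1, the lowest array, the fall was 1.42-fold (adjusted p = 0.00871). The difference of L-GMP from GMP (2837 ± 491 against 2085 ± 100; log2 fold change 0.43 ± 0.18 SE, 95% interval 0.03 to 0.83) had an adjusted p of 0.109, and one of 0.0129 without L-GMP-derived replicate 1, which belongs to neither group but enters the shared estimate of the spread. For L-GMP-derived cells against GMP the log2 fold change was -0.31 (95% interval -0.71 to 0.09, adjusted p = 0.252).

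The second Cebpd probe set, 1456605_at, was near the filter, between 103 and 183 on all arrays, and followed the first one at only r = 0.46. It read 103, 105 and 111 in L-GMP-derived cells, 155, 124 and 111 in L-GMP and 140, 153 and 183 in GMP. Here GMP had the highest signals and L-GMP-derived cells the lowest. It was called in 1 comparison, 1.49-fold lower in L-GMP-derived cells than in GMP (log2 fold change -0.57 ± 0.16 SE, adjusted p = 0.0239). This call ended without L-GMP-derived replicate 2, GMP replicate 2 or GMP replicate 3 (adjusted p up to 0.101). Between L-GMP and GMP its log2 fold change was -0.29 (adjusted p = 0.207), opposite in sign to that of the bright probe set.

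Cebpg was read by 3 probe sets that did not follow one pattern. The brightest, 1425262_at, read 1390.1, 1193 and 1172 in L-GMP-derived cells, 1092, 958 and 802 in L-GMP, and 1315, 1233 and 1211 in GMP. The L-GMP arrays were the lowest, and L-GMP-derived cells and GMP overlapped. By this probe set Cebpg fell 1.33-fold in L-GMP against GMP (951 ± 145 against 1253 ± 55.0, SD; log2 fold change -0.41 ± 0.13 SE, 95% interval -0.69 to -0.12, adjusted p = 0.0386), and it rose 1.32-fold in L-GMP-derived cells against L-GMP (1251.5 ± 120 against 951 ± 145; 0.40 ± 0.13 SE, adjusted p = 0.0360). Both calls were close to the threshold, and leaving out single arrays took the adjusted p to between 0.0190 and 0.128 for the first and between 0.0166 and 0.121 for the second. The call against GMP ended without L-GMP replicate 2 or 3, L-GMP-derived replicate 3, or any of the GMP arrays. The call against L-GMP ended without any array other than L-GMP replicate 1. L-GMP-derived cells differed from GMP by -0.01 on the log2 scale (95% interval -0.29 to 0.28, adjusted p = 0.984).

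The probe set 1451639_at, which has the same source accession in the annotation as the other two, ordered the groups differently. It read 240, 282 and 235 in L-GMP-derived cells, 214, 141 and 143 in L-GMP, and 124, 130 and 103 in GMP. No 2 groups overlapped, and GMP was the lowest. Signals were 2.12-fold higher in L-GMP-derived cells than in GMP (log2 fold change 1.09 ± 0.18 SE, adjusted p = 0.00161) and 1.54-fold higher than in L-GMP (0.63 ± 0.18 SE, adjusted p = 0.0230), and the difference of L-GMP from GMP (0.46 ± 0.18 SE) had an adjusted p of 0.0863. The call against L-GMP ended without L-GMP replicate 2 or 3 or L-GMP-derived replicate 2 (adjusted p up to 0.0894). The third probe set, 1425261_at, read 529, 224 and 226 in L-GMP-derived cells, 154, 228 and 192 in L-GMP and 188, 232 and 246 in GMP, and was called in none of the comparisons (adjusted p = 0.126 to 0.639). Its value of 529 came from L-GMP-derived replicate 1, and the log2 fold change against GMP was 0.44 with that array and 0.03 without it. With the brightest probe set, 1425261_at correlated at 0.48 and 1451639_at at 0.18 over the 9 arrays. No direction for Cebpg in L-GMP-derived cells against GMP held over its 3 probe sets.

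**Figure D2:**
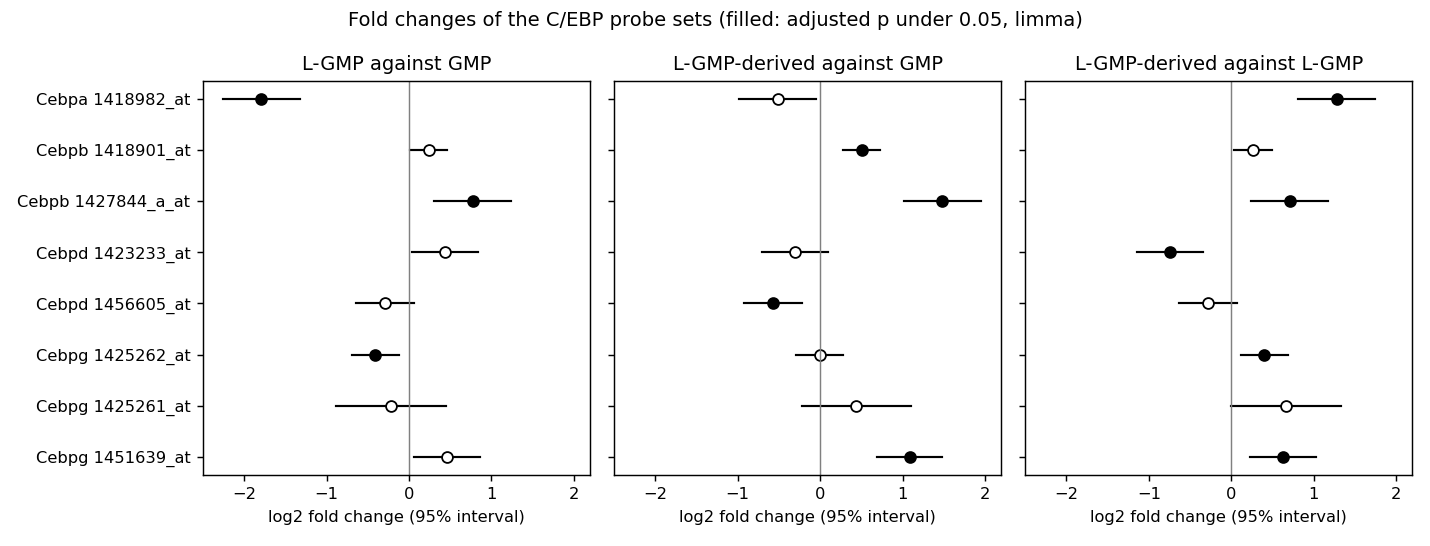
Log2 fold changes of the 8 C/EBP probe sets (x axis) with their 95% intervals, in 1 panel a comparison, with filled points where the adjusted p was under 0.05. Cebpa is farthest from 0 in L-GMP against GMP, at -1.79, and the 3 Cebpg probe sets take different values in L-GMP-derived cells against GMP, from -0.01 to 1.09.

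Counted over probe sets, L-GMP against GMP had 1 of 8 family probe sets higher and 2 lower, against a background of 25.9% of all tested probe sets called in either direction. L-GMP-derived cells against GMP had 3 higher and 1 lower (24.4% of all called), and L-GMP-derived cells against L-GMP 4 higher and 1 lower (29.9% of all called). With 1 probe set for each gene, the one of highest mean log2 signal, Cebpa and Cebpg were lower and none was higher in L-GMP than in GMP, Cebpb alone was higher and none lower in L-GMP-derived cells than in GMP, and Cebpa and Cebpg were higher and Cebpd lower in L-GMP-derived cells than in L-GMP. With 4 genes these counts are too small to be read as more than the values of the single members. The comparisons with GMP share the GMP arrays, and both comparisons with L-GMP share the L-GMP arrays.

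Because a level of one probe set cannot be set against that of another, the balance of the family was followed as the difference between the log2 signals of pairs of genes on the same array, relative to its mean in GMP. The excess of Cebpb over Cebpa was 1.40, 0.88 and 0.79 in L-GMP-derived cells, 1.92, 2.26 and 1.92 in L-GMP, and 0.20, -0.08 and -0.12 in GMP. The balance thus stood farthest from normal in L-GMP, by 2.03 on average, and lay between in L-GMP-derived cells, at 1.02, with no overlap of groups. Most of the 2.03 is the fall of Cebpa given above (log2 fold change -1.79), as the change of Cebpb was 0.24 and not called. Only the bright probe set of each gene was used, and the dimmer ones of Cebpd (r = 0.46) and Cebpg (0.48 and 0.18) followed it loosely. The excess of Cebpd over Cebpa was 0.16, 0.25 and 0.22 in L-GMP-derived cells, 2.14, 2.50 and 2.03 in L-GMP, and 0.20, -0.04 and -0.16 in GMP. L-GMP-derived cells overlapped GMP in it, and L-GMP lay apart from both. Cebpd fell behind Cebpb in L-GMP-derived cells, at -1.24, -0.63 and -0.56, against 0.22, 0.24 and 0.12 in L-GMP and 0.00, 0.04 and -0.04 in GMP. In an exact two-sided permutation test, 14 of the 18 comparisons of the 6 pairs gave p = 0.1 (adjusted p = 0.129). This is the smallest value that 3 against 3 arrays allow, so none could pass 0.05. The 6 pairs share genes and are not independent. How often pairs of other genes reach that smallest value was not computed, so the count of 14 has no background to be read against.

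**Figure D3:**
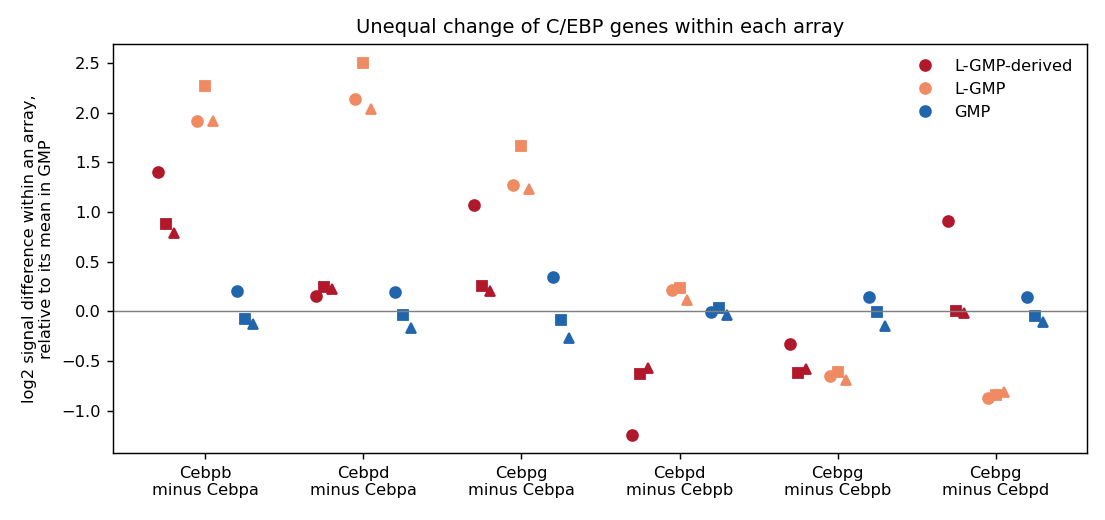
Difference between the log2 signals of 2 C/EBP genes on the same array, relative to the mean of that difference in GMP (y axis), for each of 6 pairs (x axis), with 1 point an array, coloured by group and shaped by replicate (circle, square and triangle for 1, 2 and 3). For Cebpb minus Cebpa the L-GMP arrays sit at 1.92 to 2.26, the L-GMP-derived arrays at 0.79 to 1.40 and the GMP arrays at -0.12 to 0.20.

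The 3' to 5' signal ratio of the beta-actin control probe sets, a measure of RNA quality, differed between the groups in the same order as Cebpa. It was 7.10 ± 0.140 in L-GMP-derived cells, 5.17 ± 0.355 for L-GMP and 7.37 ± 0.648 for GMP (SD, n = 3 each), and its exact two-sided permutation p was 0.1 for both comparisons with L-GMP and 0.8 for L-GMP-derived cells against GMP. For Gapdh, in the same order of groups, this ratio was 7.21 ± 1.78, 8.09 ± 3.05 and 7.86 ± 0.855 (exact p = 0.6 to 1). The part of RNA quality in the family's values was not tested. On L-GMP replicate 1, the array with the highest Camp signal of its group, all 4 genes read highest of the 3 L-GMP arrays by their bright probe set, and without it the log2 fold changes of L-GMP against GMP were -1.96 for Cebpa, 0.13 for Cebpb, 0.31 for Cebpd and -0.51 for Cebpg.

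Among the 8959 genes, those most like Cebpa over the 9 arrays (Pearson correlation of log2 signals) were Mdfic, whose product holds a MyoD family inhibitor domain (r = 0.99), Etv2, an ETS factor gene (0.98), and Nipal2 (0.98). Mdfic averaged 234 in L-GMP-derived cells, 118 in L-GMP and 315 in GMP. Etv2 moved far less, at 186, 161 and 200.4, and Nipal2 was below the floor on 2 arrays. For Cebpb they were Sel1l, a gene of endoplasmic reticulum protein degradation (0.98), 1600014C10Rik (0.98) and Igf2r, the cation-independent mannose 6-phosphate receptor gene (0.97). For Cebpd they were Hcfc1r1 (0.99), the ubiquitin ligase gene Rnf19b (0.98) and Herpud2 (0.97), and for Cebpg the FK506-binding protein gene Fkbp2 (0.96), Hsd17b12 (0.95) and Cnih4 (0.95). The 9 points are 3 groups of 3, so that any gene with the same order of group means scores high. Between family members, Cebpa and Cebpg correlated at 0.74, Cebpd and Cebpg at -0.61, Cebpa and Cebpd at -0.43, and the 3 pairs with Cebpb at -0.15 to 0.17.

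Genes that act with the family were counted in 6 lists, with 1 probe set for each gene. Among all 8959 genes, 13.1% were higher and 12.8% lower in L-GMP than in GMP, 13.4% and 10.6% in L-GMP-derived cells than in GMP, and 16.6% and 14.1% in L-GMP-derived cells than in L-GMP. The median log2 fold change over all genes was between -0.01 and 0.00 in these comparisons. Where the lower group has an array at the floor, the fold is a bound and is written "at least"; folds are ratios of geometric means, from the log2 signals.

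Of 18 tested targets of C/EBP alpha, 5 rose and 3 fell in L-GMP against GMP, with a median log2 fold change of 0.03. The list was not split by the direction in which C/EBP alpha acts on each gene, so these counts do not measure its activity. Without L-GMP-derived replicate 1 the count was 5 higher and 5 lower. Mycn, which encodes a Myc family factor, was at least 61.0-fold higher, the sialic acid receptor gene Cd33 3.94-fold and the haptoglobin gene Hp 3.17-fold. Among the lower genes were Il6ra, the interleukin 6 receptor gene (557 ± 124 against 1064 ± 90.8, 1.94-fold, adjusted p = 0.0187), Sox4 and Ctsg, which encodes the granule protease cathepsin G (1.36-fold, adjusted p = 0.00207). These 3 are named after their values were seen, as is Csf3r, the granulocyte colony-stimulating factor receptor gene, with 551, 514 and 494 in L-GMP against 521, 516 and 529 in GMP. The call of Sox4 (2.12-fold, adjusted p = 0.0468) ended in 7 of 9 fits with an array left out, and that of Il6ra without L-GMP replicate 3, GMP replicate 2 or GMP replicate 3 (adjusted p up to 0.0735).

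In L-GMP-derived cells against GMP, 6 of these 18 genes rose and 4 fell (median -0.01), and against L-GMP 3 rose and 7 fell (median -0.18). Csf1r, the receptor gene for macrophage colony-stimulating factor, was 11.5-fold lower than in GMP and 9.29-fold lower than in L-GMP. Mpo, the myeloperoxidase gene, was 11.9-fold lower than in GMP and 7.55-fold lower than in L-GMP, folds that were 25.4 and 16.1 without L-GMP-derived replicate 1 and 7.59 and 4.81 without replicate 3. The cell cycle inhibitor gene Cdkn1a, whose product C/EBP alpha is known to stabilise, was 7.37-fold and 5.21-fold higher. Cebpa itself was higher in L-GMP-derived cells than in L-GMP. In that comparison 3 of the 18 genes rose, Ctsg among them (1.47-fold), and 7 fell, Csf1r and Mpo among them.

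**Figure D4:**
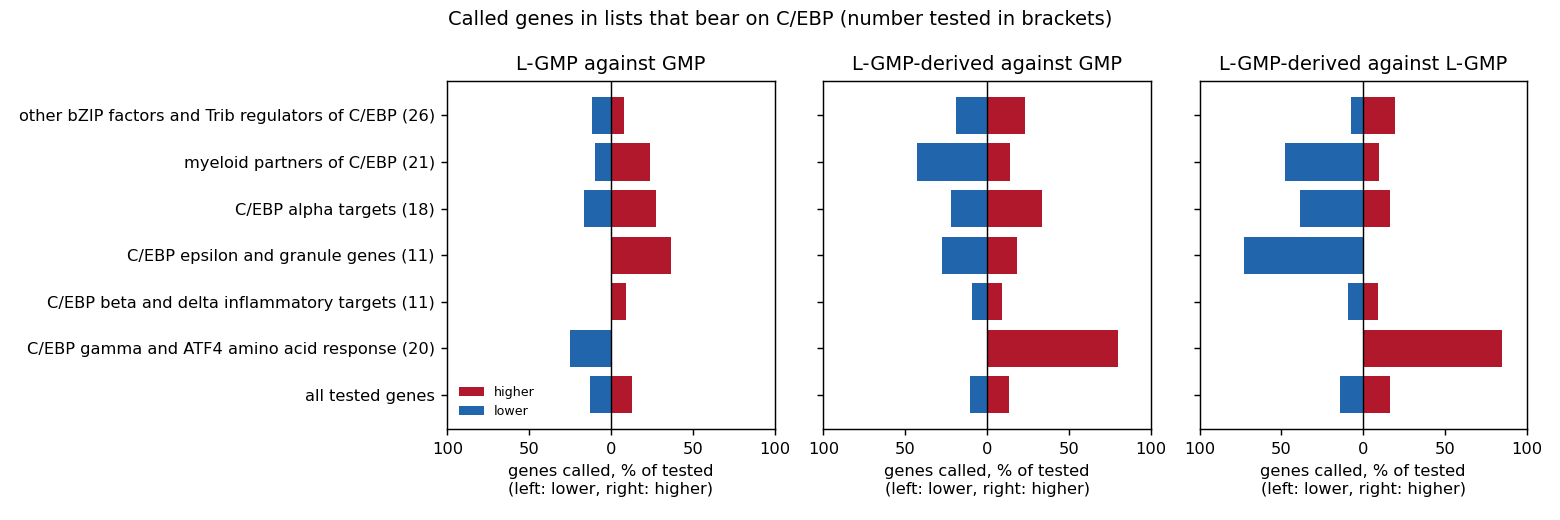
Share of the tested genes of 6 lists that bear on C/EBP called higher (right) or lower (left) at an adjusted p under 0.05, in percent (x axis), in 1 panel a comparison, with all tested genes in the lowest row. The amino acid response list has 80.0% of its genes higher in L-GMP-derived cells than in GMP, where all genes have 13.4%. That list was already known to rise in the cultured cells when it was drawn up.

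The list of C/EBP epsilon and granule genes holds genes of late neutrophil and eosinophil maturation. In L-GMP against GMP, 4 of 11 tested genes rose and none fell (median log2 fold change 0.99). Prg2, the eosinophil major basic protein gene, was 14.4-fold higher, and the integrin gene Itgb2 11.7-fold. Prg2 was the only higher gene of 6 tested eosinophil, mast cell and basophil markers, of which 2 were lower. In L-GMP-derived cells against L-GMP, 0 of the 11 rose and 8 fell (median -2.06), a count of 5 without L-GMP replicate 1. Prg2 was at least 42.6-fold lower, the cathelicidin gene Camp at least 38.0-fold, with 25.2 without L-GMP-derived replicate 1, and the annexin gene Anxa1 16.7-fold. Against GMP, L-GMP-derived cells had 2 higher and 3 lower (median -0.996). The list shares genes with the neutrophil and eosinophil markers given above. Of 3 tested mature neutrophil markers, 0 were called in L-GMP against GMP and 1 was lower in L-GMP-derived cells than in L-GMP. The part of these markers in the counts was not tested.

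The inflammatory targets of C/EBP beta and delta had at most 1 gene called in each direction, 9.09% of those tested. Among all genes these shares were 10.6% to 16.6%. Of 20 listed genes 11 passed the filter, and in L-GMP against GMP 1 rose and none fell (median log2 fold change 0.02). That gene was Hp, an acute phase gene also counted among the C/EBP alpha targets. It averaged 7249 ± 248 in L-GMP against 2291 ± 239 in GMP (SD). In L-GMP-derived cells 1 rose and 1 fell against GMP (median 0.01) and likewise against L-GMP (median 0.11). Hp was again the one higher than in GMP, 1.89-fold, and the one lower than in L-GMP, 1.68-fold. The others were the chemokine gene Cxcl2, at least 10.2-fold lower than in GMP (5.17 without GMP replicate 2 and 32.8 without GMP replicate 1), and Socs3, a cytokine feedback gene, at least 2.76-fold higher than in L-GMP. The call of Cxcl2 ended in 8 of 9 fits with an array left out and that of Socs3 in 6 of 9. The 9 listed genes below the filter, Il6 and Nos2 among them, were not tested.

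Most tested genes of the amino acid response, in which C/EBP gamma pairs with ATF4, rose in L-GMP-derived cells. Of 20 tested genes, 16 rose and none fell against GMP (median log2 fold change 1.33), and 17 rose and none fell against L-GMP (median 1.79). Trib3, a pseudokinase gene of the family whose other members Trib1 and Trib2 direct C/EBP alpha to degradation, read 2331, 683 and 943 in L-GMP-derived cells, against 2.01, 3.40 and 7.97 in L-GMP and 8.38, 6.50 and 10.7 in GMP. It was at least 18.3-fold higher than in either group. Asns, the asparagine synthetase gene, was 7.80-fold higher than in GMP and 7.41-fold higher than in L-GMP. Chac1, which encodes a glutathione-degrading enzyme, was at least 17.5-fold higher than in GMP. It read 1932, 793 and 1002 in L-GMP-derived cells against 185, 52.3 and 66.0 in L-GMP. In L-GMP against GMP 0 rose and 5 fell (median -0.13), a count of 1 higher and 8 lower without L-GMP-derived replicate 1, and Phgdh, an enzyme gene of serine synthesis, was 14.6-fold lower. This list was already known to rise in the cultured cells when it was drawn up and is no independent evidence. The bright Cebpg probe set did not differ between L-GMP-derived cells and GMP by the test, while 1451639_at was 2.12-fold higher.

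Of 26 tested genes for other leucine zipper factors and Trib proteins, 2 rose and 3 fell in L-GMP against GMP (median log2 fold change -0.09). Hlf, a PAR-type leucine zipper factor gene of stem cells, was at least 3.50-fold lower, and Mafg, a small Maf gene, 2.59-fold higher. In L-GMP-derived cells 6 rose and 5 fell against GMP (median 0.02), and 5 rose and 2 fell against L-GMP (median -0.06). Fos, an AP-1 gene whose product can pair with C/EBP proteins, was below the floor on all 3 L-GMP-derived arrays and at least 57.3-fold lower than in GMP, a fold that moved to 94.7 without GMP replicate 1. Its signal varied widely in GMP (4383 ± 2674, SD). Atf5 was 3.70-fold higher than in GMP, and Atf4, named after its values were seen, 1.19-fold (6776 ± 577 against 5692 ± 90.7, adjusted p = 0.00918). Trib1 and Trib2, also named after their values were seen, read 173 to 269 and 108 to 131 in L-GMP, against 254 to 289 and 118 to 136 in GMP, and neither was called.

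Of 21 tested myeloid partners of C/EBP, 5 rose and 2 fell in L-GMP against GMP (median log2 fold change 0.05). Klf4, a monocyte factor gene, was 7.10-fold lower, and Id1, an inhibitor of differentiation factors, at least 3.76-fold higher. Spi1, which encodes PU.1, the factor set against C/EBP alpha in the choice between macrophage and granulocyte, is named after its values were seen: it read 1909, 1616 and 1696 in L-GMP against 772, 871 and 829 in GMP, 2.11-fold higher (adjusted p = 1.29e-04). In L-GMP-derived cells 3 partners rose and 9 fell against GMP (median -0.23), and 2 rose and 10 fell against L-GMP (median -0.34). Klf4 was at least 20.9-fold lower than in GMP and Zbtb16 7.57-fold lower. Irf8, a factor gene of the monocyte line, was 3.74-fold lower and Gata2, a stem and mast cell factor gene, 7.17-fold lower than in L-GMP. The eosinophil, mast cell and basophil markers, of which Gata2 is one, had 4 of 6 tested genes lower in the same comparison.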

How the data were processed

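The authors deposited linear probe set intensities of 9 Affymetrix arrays, made with MAS5 (version 5) per the submitters' processing notes; the notes used here do not say how background was corrected or to what target arrays were scaled. Of 204210 values 0.939% were negative. Trimmed means (2% off each end) lay within 4.02% of their average, so the authors' scaling was kept. Signals under 62.4 (25th percentile) were set to that floor before log2. Probe sets above 111 (40th percentile) on 3 or more arrays entered a limma 3.58.1 fit (R 4.3.3; lmFit and contrasts.fit, then eBayes with trend) on all 9 arrays together, two-sided, with Benjamini-Hochberg adjustment over 14578 probe sets and a threshold of 0.05. The fit was tested on simulated data.

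Names came from the platform annotation, and only probe sets with 1 symbol (20393) were named. Genes stand for their probe set of highest mean log2 signal; those of Trib3, Asns, Phgdh and Atf4 (_x_at) can also bind related transcripts. Promoters of 3 of 5 members matched in RefSeq. Named are all members, the 3 genes most like each, and some called genes of each list, not always those with the largest change. Members and lists were chosen with earlier results of these data known. The number of arrays limits precision. The replicate numbers were not taken as pairs: same-numbered arrays of different groups deviated together at r = -0.31 to 0.17, and GMP replicate 1 has no number in its title.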

Additional observations from a re-analysis of the deposited data

How the results depend on the processing

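Over 18 alternative settings, the 12 differences of the 4 genes kept their direction and their side of the threshold in 187 of 216 cases, lost the call in 18, gained it in 8 and changed sign in 3. The 4 differences that kept both in all 18 settings were Cebpa in L-GMP against GMP and in L-GMP-derived cells against L-GMP, Cebpb in L-GMP-derived cells against GMP, and, without a call, Cebpd in L-GMP-derived cells against GMP. Without a filter, calls ended for Cebpg in L-GMP against GMP (log2 fold change -0.41, adjusted p = 0.0718), and in L-GMP-derived cells against L-GMP for Cebpg (0.40, adjusted p = 0.0680) and Cebpd (-0.74, adjusted p = 0.0594); more probe sets are then tested. With only the 6 arrays compared, Cebpd passed in L-GMP against GMP (0.43, adjusted p = 0.0333) and Cebpg did not in L-GMP-derived cells against L-GMP (0.40, adjusted p = 0.0902). With array weights, Cebpd passed in L-GMP against GMP (0.41), Cebpa in L-GMP-derived cells against GMP (-0.41, adjusted p = 0.0258) and Cebpb in L-GMP-derived cells against L-GMP (0.26, also with quantile normalization at 0.27), and L-GMP-derived cells against GMP had 6912 called probe sets in place of 3551. With single arrays left out, log2 fold changes ran, for L-GMP against GMP, from 0.13 to 0.33 (Cebpb), 0.31 to 0.56 (Cebpd) and -0.51 to -0.29 (Cebpg). For L-GMP-derived cells against GMP, Cebpg ran from -0.083 to 0.040, changing sign without L-GMP-derived replicate 2 (0.027) or 3 (0.040) or GMP replicate 1 (0.030). Against L-GMP, Cebpb ran from 0.17 to 0.37 and Cebpg from 0.29 to 0.51. Called probe sets then numbered 2475 to 4904 for L-GMP against GMP and 2306 to 4456 for L-GMP-derived cells against GMP, both lowest without GMP replicate 3. The causes were not tested.

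With the replicate block, 2967, 2781 and 3598 probe sets passed for L-GMP against GMP, L-GMP-derived cells against GMP and L-GMP-derived cells against L-GMP, in place of 3777, 3551 and 4354, and no call of the 4 genes changed. Of the dimmer probe sets, 1427844_a_at of Cebpb lost its calls in L-GMP against GMP (adjusted p = 0.0514) and in L-GMP-derived cells against L-GMP (0.0605), and 1456605_at of Cebpd its call in L-GMP-derived cells against GMP (0.0573). Of 9 arrays 1 correlated best with its own number. List counts without L-GMP-derived replicate 1 or L-GMP replicate 1 were added after seeing the data. Without L-GMP-derived replicate 1, the lower genes numbered 5 in place of 3 among C/EBP alpha targets in L-GMP against GMP, and 5 in place of 2 among other leucine zipper genes in L-GMP-derived cells against L-GMP (1 without L-GMP replicate 1). The inflammatory list moved by over 1.5 times: 3 called in L-GMP against GMP in place of 1 without L-GMP-derived replicate 1, and in L-GMP-derived cells 1 in place of 2, against GMP without either array and against L-GMP without L-GMP replicate 1. Dim probe sets lie near the floor. The second one of Cebpb read 83.2 to 306, with 0 arrays below the floor. With the floor raised to the 40th percentile, its log2 fold change of L-GMP against GMP was 0.50 in place of 0.77 (adjusted p = 0.0917, limma).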
